A study of Drosophila melanogaster with 10 samples.

Results

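The domains described here are those of the fourth chromosome of Drosophila melanogaster in late embryos: 152 of the 19272 deposited Elys domains and 102 of the 15662 deposited lamina-associated domains (LADs). All domains that bear this chromosome name were taken, whatever their values. They ran from the first to the last domain of either protein over 1266600 bp (chr4:55201-1321800, assembly dm3/R5), and the 4 large autosomal arms (2L, 2R, 3L and 3R) served for comparison. The study mapped Elys and Lamin Dm0 (Lam) by DamID-seq in embryos aged 16 to 18 h and measured poly(A+) RNA in cultured S2 cells after knockdown of Elys and after a control treatment. DamID relies on the bacterial Dam methylase, which, once joined to a chromatin protein, methylates adenines of nearby DNA.

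Embryos of 3 kinds were made by crossing nos-Cre females, with Cre in oocytes and zygotes, to males with a pUAST-attB construct, in which an hsp70 promoter and a loxP-stop-loxP cassette precede Dam-Elys, Dam-Lamin or Dam alone. Cre removes the stop cassette, so that the basal hsp70 promoter drives the methylase in the tissues of the whole animal. All inserts sat at attP40 on chromosome 2, and each library came from pooled embryos of many cell types. Each kind had 2 libraries, amplified by 18 PCR cycles for Dam-Elys, 16 for Dam-Lam and 18 for Dam. The authors merged the 2 libraries of each kind and called domains in bins of 300 bp on the log2 ratio to Dam. No value from the domains therefore carries a replicate error, and differences between chromosome 4 and the arms are given as a description beside the spread between and along the arms. Both fusion proteins were divided by the same Dam libraries, and the part of this in their overlap was not tested. S2 cells, an embryonic line, carried no fusion protein and received either Elys dsRNA (Elys-KD, 2 libraries) or LacZ dsRNA (Control-KD, 2 libraries).

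LADs are stretches of chromatin that touch the nuclear lamina, and most genes in them are silent or weakly expressed. Elys is a nucleoporin of the nuclear ring of the nuclear pore complex that also binds chromatin. The fourth chromosome of the fly is small, rich in repeats and packed with heterochromatin protein HP1a and methylated H3K9 along its arm, yet it holds many active genes, which the chromosome-specific protein POF coats.

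As deposited, Elys domains on chromosome 4 were fewer per Mb and longer than on the arms. They numbered 120 per Mb, against 139.1 to 154.7 per Mb on the 4 arms. With gaps of up to 900 bp filled this order was reversed, with 79.7 per Mb, against 69.9 to 78.3. The median length of the deposited domains was 2400 bp with quartiles of 900 and 5400 bp, against medians of 1500 to 1800 bp on the arms. With these gaps filled it was 4500 bp, against 3600 to 4200 bp, so that the greater length stayed. Domains of over 10 kb made up 16 of the 152 (10.5%), against 5.41% to 7.26% on the arms, and held 42.4% of the Elys length, against 29.9% to 35.7%. Domains of 1 bin made up 23 of the 152 (15.1%), against 16.2% to 18.7% on the arms.

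LADs of chromosome 4 numbered 80.5 per Mb, against 100.8 to 113.9 per Mb on the arms. Their median length was 2550 bp with quartiles of 600 and 7125 bp, against medians of 2100 to 2400 bp on the arms. Of the 102 LADs, 18 (17.6%) were longer than 10 kb, against 12.7% to 15.2% on the arms. The numbers per Mb rested on the short gaps inside runs of domains. With gaps of up to 900 bp filled, chromosome 4 had 79.7 Elys domains per Mb, against 69.9 to 78.3 on the arms, and 41.8 LADs per Mb, against 35.6 to 40.6, so that both numbers became higher than on any of the 4 arms. The median LAD was then 4800 bp, against 7800 to 9300 bp, shorter than on any of them.

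Gaps between neighbouring deposited domains were longer on chromosome 4 than on the arms. The median gap between Elys domains was 2100 bp, against 900 to 1200 bp on the arms. With gaps of up to 900 bp filled it was 4950 bp, against 4500 to 5100 bp, and the difference was gone. Gaps of 1 bin, the shortest that can be seen, made up 27 of 151 (17.9%, 95% Wilson interval 12.6% to 24.8%), against 33.3% to 34.7% on the arms. The interval covers counting error only, and neighbouring gaps share a profile. Between LADs the median gap was 1200 bp, against 600 bp on each of the 4 arms, and 26 of 101 gaps (25.7%) were of 1 bin, against 41.3% to 43.8%. Gaps of up to 3000 bp made up 63 of the 101 (62.4%), against 78.2% to 80.6% on the arms. With gaps of up to 900 bp filled the median gap between LADs was 6450 bp, against 3900 to 4500 bp, so that for LADs the difference stayed.

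To see how far such values vary along the arms themselves, the arms were tiled from their first domain on with 75 stretches as long as chromosome 4. The share of 1-bin gaps between Elys domains was higher in all 75 stretches, the lowest of which had 22.9%. That of 1-bin gaps between LADs was higher in 74 of the 75. Elys domains per Mb were higher in 66 stretches and lower in 8, and LADs per Mb were higher in 62 and lower in 12, so that the density of domains lay within the range of the arms.

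Coverage by both proteins together differed more between chromosome 4 and the arms than coverage by either alone. Elys domains covered 51.0% of chromosome 4 (646.2 kb), against 42.2% to 47.4% of the arms, and 16 of the 75 stretches had more. LADs covered 46.5% (589.2 kb), against 46.6% to 52.4%, and 48 of the 75 stretches had more. Sequence in an Elys domain and a LAD at once made up 29.6% (374.7 kb), against 16.6% to 21.01% on the arms, and 4 of the 75 stretches had more. The product of the 2 coverages of chromosome 4 comes to 300.6 kb. Sequence in LADs without Elys made up 16.9%, against 28.0% to 31.7% on the arms, and sequence in neither made up 32.0%, against 20.9% to 27.8%.

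**Figure D1:**
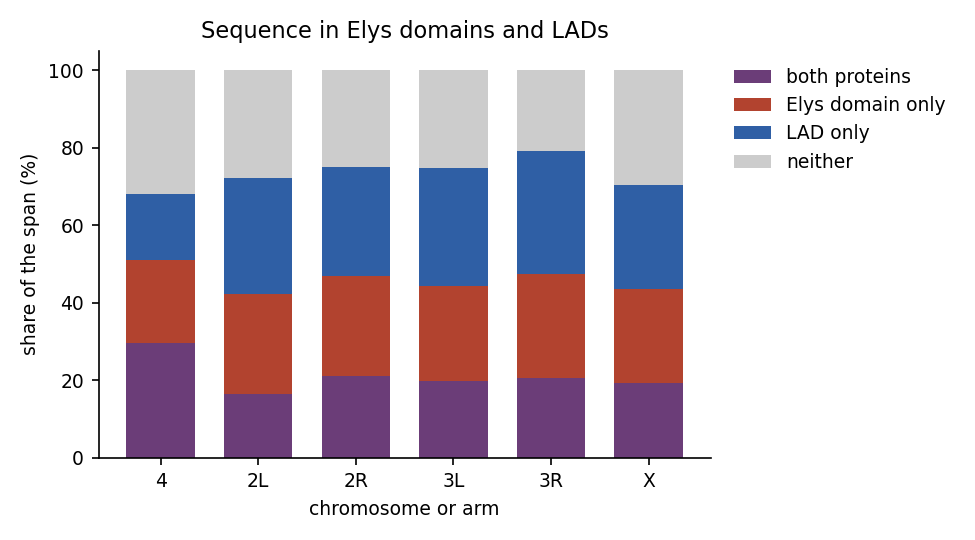
Stacked bars give the percent of the span of chromosome 4, of the 4 large autosomal arms and of X that lay in both an Elys domain and a LAD, in an Elys domain only, in a LAD only or in neither. Chromosome 4 has the tallest bar section for both proteins, 29.6%, and the shortest for LADs alone, 16.9%.

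Of the Elys length on chromosome 4, 58.0% lay in LADs, against 39.2% to 44.9% on the arms, and 12 of the 75 stretches had more. Set against the share of the chromosome that LADs cover, this gave an overlap ratio of 1.25, against 0.83 to 0.91 on the arms and 0.96 on X. A ratio over 1 means that Elys domains held more LAD sequence than the LAD coverage of that chromosome alone would give. Sequence in neither also counts in that coverage, and it made up 32.05% of chromosome 4, against 20.9% to 27.8% on the arms. Without gaps of over 30 kb free of both proteins, the ratio was 1.213, against 0.83 to 0.90 on the arms. The part that shorter stretches which cannot be mapped have in the ratio was not tested. Seen from the LADs, 63.6% of LAD length was under Elys domains, against 35.6% to 42.9% on the arms. Outside LADs, Elys domains covered 40.1% of chromosome 4, against 48.0% to 56.1% of the arms. On chromosome 4 Elys coverage was therefore higher inside LADs than outside them, and on each of the 4 arms and X it was lower inside.

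As deposited, the overlap ratio of chromosome 4, 1.247, was narrowly above that of all 75 stretches. The highest of them had 1.233, and 6 of the 75 exceeded 1. The ratio of chromosome 4 fell to 1.207 with 1-bin domains left out and to 1.21 with gaps of up to 900 bp filled. The stretches are given for the deposited domains only, so whether the rank holds in these settings is not known. The tiling left out a remainder at the far end of each arm, and some stretches measured from the centromere-proximal end were higher than chromosome 4. The proximal stretch of 3L had a ratio of 1.67 and that of X 1.33, against 1.23 for 2R, 0.86 for 3R and 0.80 for 2L. Those of 3L and 2R held little Elys, with coverages of 8.15% and 10.6%. Sequence in neither made up 53.7% of the proximal stretch on 3L, 63.7% on 2R, 41.9% on X, 54.2% on 2L and 18.4% on 3R. In no proximal stretch was as much of the LAD length under Elys domains as the 63.6% of chromosome 4, with values of 55.6% on 3R, 33.8% on X, 16.2% on 2L, 13.6% on 3L and 13.1% on 2R. Among 191 shorter stretches of 0.5 Mb, 4 had a higher ratio than chromosome 4 and 34 exceeded 1.

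**Figure D2:**
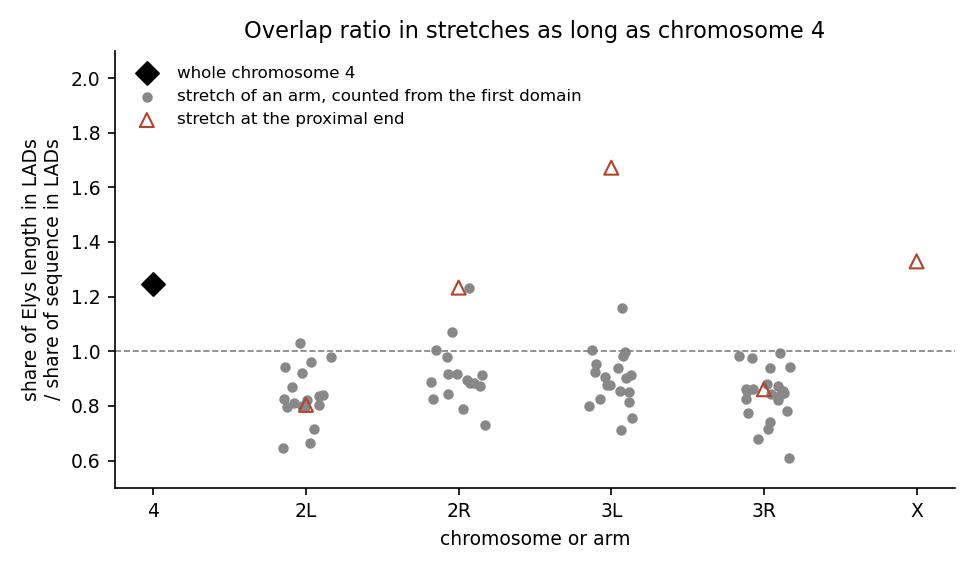
Overlap ratio (share of Elys length in LADs divided by the share of sequence in LADs, no unit) of chromosome 4 as a diamond, of the 75 stretches of equal length along the 4 large arms as dots, and of the centromere-proximal stretches of these arms and of X as triangles. The proximal stretches of 2R and 3R are also the first stretches of those arms, points are spread sideways at random for sight, and the dashed line marks a ratio of 1. The diamond, at 1.25, lies above every dot and below the triangles of 3L and X.

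Counted as domains, 102 of the 152 Elys domains touched a LAD (67.1%, 95% Wilson interval 59.3% to 74.1%), against 59.2% to 64.8% on the arms. Of these, 60 lay inside a LAD and 42 straddled a LAD boundary, and 50 lay outside LADs. Here too the interval covers counting error only, and neighbouring domains share a profile. The share inside LADs, 39.5%, was within the 38.1% to 42.9% of the arms, and the share that straddled a boundary, 27.6%, was above their 21.1% to 22.1%. Straddling domains had a median length of 4200 bp on chromosome 4, against 2100 to 3000 bp on the arms. With at least 0.5 of a domain required in a LAD, 56.6% counted as shared, against 51.8% to 57.1% on the arms, and 3 of the 4 arms were above chromosome 4 as well with short gaps filled or with 1-bin domains left out. The difference in counts thus did not hold, whereas that in shared length did.

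The same shared length was also counted from the side of the LADs, which is no separate support for the excess. Of the 102 LADs, 92 (90.2%, 95% Wilson interval 82.9% to 94.6%) touched an Elys domain, against 72.3% to 80.1% on the arms. Neighbouring LADs share a profile and are not replicates, so this interval covers counting error only and is no test. Elys domains took up 51 of the 102 LADs whole (50%), against 37.4% to 42% on the arms. Free of Elys were 10 LADs (9.80%), against 19.9% to 27.7% on the arms. The 54 LADs of up to 2.7 kb had 76.2% of their length under Elys domains, against 57.3% to 62.0% on the arms. The 36 LADs of intermediate length had 63.6%, against 33.6% to 42.2%. The 12 LADs of 15 kb or more had 61.6%, against 29.9% to 39.1%. LADs of every length class held more Elys than those of any of the 4 arms, and the long ones stood further from them than the short ones.

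Elys coverage was then followed by distance from LAD boundaries. Within 600 bp inside a boundary, Elys domains covered 70.2% on chromosome 4, against 53.2% on the 4 arms together. At 1500 to 3000 bp inside they covered 68.8%, against 35.2%, at 3000 to 6000 bp 53.8%, against 33.0%, and beyond 6000 bp 63.4%, against 33.9%. Elys coverage was lower deep in LADs than at their edge on both, and on chromosome 4 it was above the arms at every depth. Just outside LADs, within 600 bp, it was 36.3%, against 29.6% on the arms. Beyond 6000 bp from any LAD it was 38.0%, against 59.97%. Short gaps of up to 3000 bp between LADs held an Elys domain in 15 of 63 cases (23.8%, 95% Wilson interval 14.99% to 35.6%), against 27.0% to 32.3% on the arms. This interval, too, covers counting error only.

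**Figure D3:**
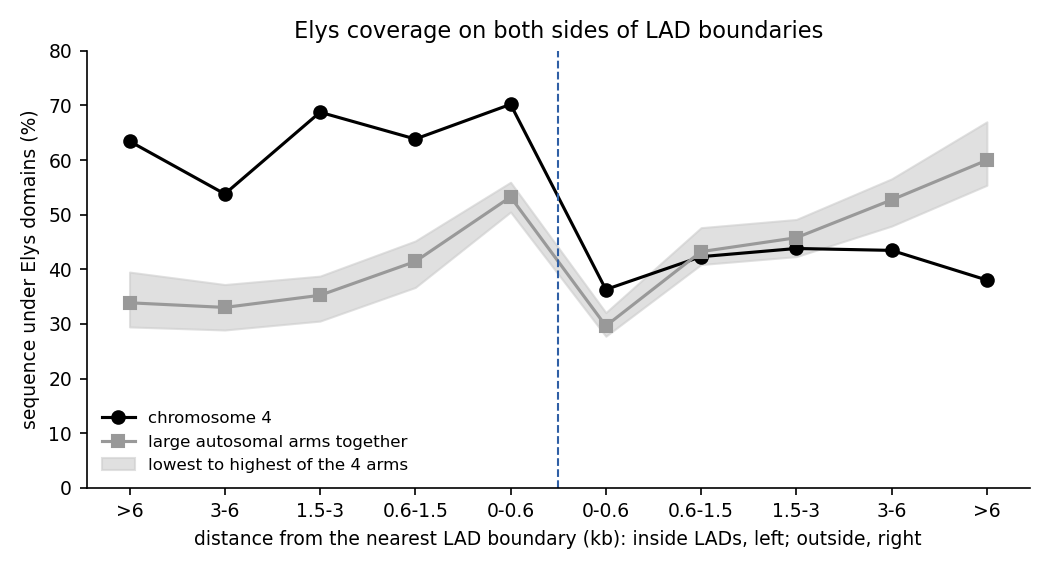
Percent of sequence under Elys domains by distance from the nearest LAD boundary in kb, inside LADs to the left of the dashed line and outside to the right, for chromosome 4 in black, for the 4 large arms together in grey and with the lowest to highest arm as a band. Chromosome 4 lies above the band at all distances inside LADs and below it beyond 3 kb outside, with 38.0% against 59.97% beyond 6 kb.

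Edges of the 2 kinds of domain coincided about as often as elsewhere. Of the 304 Elys domain edges, 82 (27.0%) fell on a LAD edge of the same side, against 25.9% to 27.2% on the arms. Of the 152 Elys domains, 18 were identical to a LAD, against 1669 of 14237 on the 4 arms together. Only 1 edge (0.33%) abutted a LAD from outside, against 1.28% to 1.65% on the arms.

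The longest domains varied in how far they were paired. The longest Elys domain, at chr4:1073401-1119900, was 46.5 kb long with 67.1% of it in LADs. It lay over most of the longest LAD, chr4:1088701-1131300, which was 42.6 kb long and 97.9% under Elys domains. The Elys domain at chr4:412201-433200, was 21 kb long and lay wholly in LADs. It lay in the second longest LAD, chr4:399901-434700, of 34.8 kb and 88.8% under Elys domains. The second longest Elys domain, at chr4:501001-532800, was 31.8 kb long and had 39.6% in LADs, the least of the 5 longest. The other 2 of these, at chr4:994501-1012500 (18.0 kb) and chr4:81601-97200 (15.6 kb), had 75% and 53.9% in LADs.

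Long LADs varied in their Elys coverage. Over the 12 LADs of 15 kb or more it ranged between 9.43% and 97.9%, and 3 of them had under 30%, the others at 23.1% (chr4:536401-559800, 23.4 kb) and 29.8% (chr4:762601-779700, 17.1 kb). The LAD with the least, at chr4:264301-296100, was 31.8 kb long and had 9.43% of its length under Elys domains, against 68.5% in the 32.4-kb LAD at chr4:726001-758400 and 70.8% in the 28.8-kb LAD at chr4:166501-195300. It overlapped the second longest gap between Elys domains, chr4:283201-305100, which was 21.9 kb long and 97.3% in LADs. The next longest, chr4:550501-571800, was 21.3 kb long and 91.5% in LADs. The longest Elys gap, chr4:1287901-1321500, was 33.6 kb long, lay near the end of the chromosome and held no LAD sequence. The longest gaps between LADs were chr4:1189201-1258500 (69.3 kb), chr4:1021201-1088700 (67.5 kb) and chr4:467101-511200 (44.1 kb). Elys domains covered 29.0%, 55.6% and 47.6% of them in that order, so that regions without LADs differed in their Elys coverage.

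Along the chromosome both proteins varied widely. In 25 windows of 50 kb counted from the first domain, Elys coverage ranged between 19.2% and 76.0% with a median of 52.7%, and LAD coverage between 0% and 95.8% with a median of 42.5%. The window with the lowest Elys coverage, chr4:255201-305200, was also the one with the highest LAD coverage. The window with the highest Elys coverage, chr4:405201-455200, had a LAD coverage of 91.02%. The window at chr4:1205201-1255200 had no LAD and an Elys coverage of 25.9%. The length shared by the 2 proteins exceeded the product of their coverages in 19 windows and fell short of it in 5. No such count is given for windows of the arms, so it does not set chromosome 4 apart. Leaving out each window in turn kept the overlap ratio of the chromosome between 1.22 and 1.29 and the share of Elys length in LADs between 55.4% and 59.6%. In 3 equal sections of the chromosome the ratio was 1.202, 1.10 and 1.51, each above the 0.83 to 0.91 of the whole arms.

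**Figure D4:**
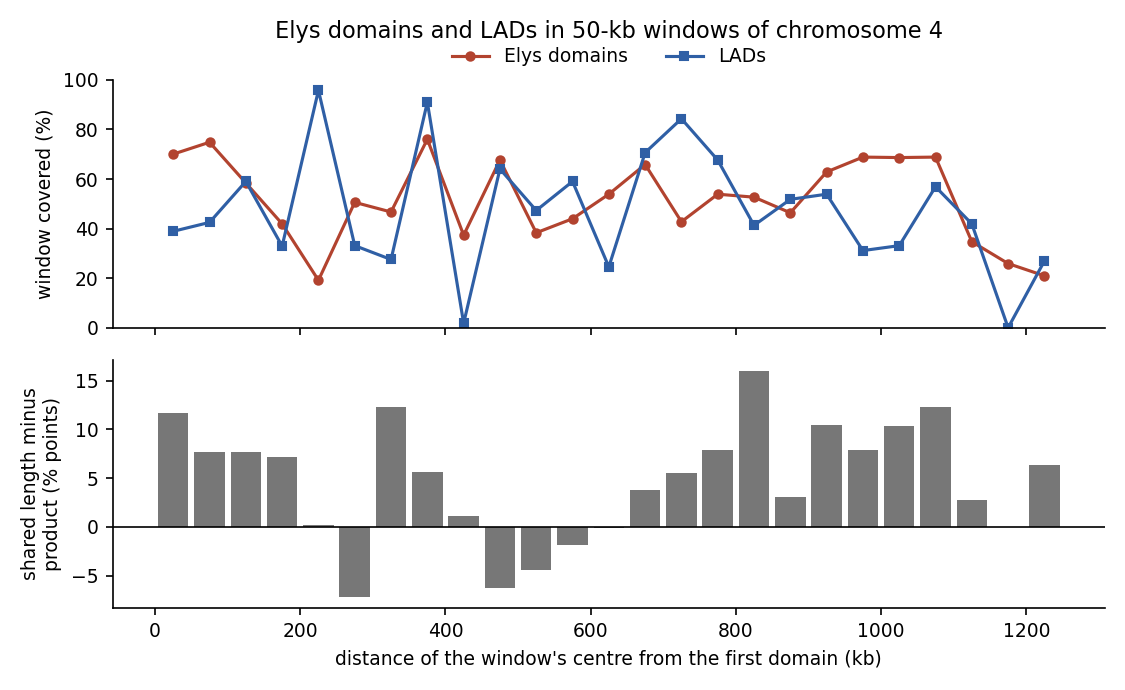
Above, percent of each 50-kb window of chromosome 4 under Elys domains (circles) and in LADs (squares) by distance from the first domain in kb. Below, the length in both minus the product of both coverages, in percentage points of the window, which is above 0 in 19 of 25 windows and below 0 in 5. Windows of the arms are not shown.

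The RNA data come from other cells than the domains and give a readout that the choice of the chromosome did not use. Total estimated counts were 58200996 and 57622326 in Elys-KD cells, against 68034643 and 61350395 in control cells. The knockdown itself was seen in the Elys RNA, at 4.96 and 4.55 TPM (a level scaled by transcript length and library depth) in Elys-KD cells, against 28.2 and 30.2 TPM in control cells. Of 3 haemocyte genes that S2 cells are known to express, srp had 77.5 and 73.9 TPM in Elys-KD cells, against 66.5 and 69.4 TPM in control cells, and Hml 12.8 and 9.82 TPM, against 11.6 and 14.3 TPM, neither of them called. Pxn rose to 10.9 and 9.52 TPM, against 6.57 and 6.14 TPM (log2 fold change 0.63, adjusted p = 0.0013, edgeR). The part of this change in the results on chromosome 4 was not tested. The files held 78 genes of chromosome 4, 77 of them protein-coding. Their positions are known here only in a later assembly than dm3, so no gene was assigned to a domain. In control cells 51 of the 78 (65.4%) had a mean of at least 1 TPM, against 53.1% of the genes of the large arms. The median of these expressed genes was 27.1 TPM on chromosome 4 and 30.5 TPM on the arms.

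Upon Elys-KD, RNA of chromosome 4 was lower as a whole. Its genes took 0.7203% and 0.7215% of all counts in Elys-KD cells, against 0.7951% and 0.7862% in control cells, and 0.5205% and 0.5185% of all TPM, against 0.5737% and 0.5672%. The groups did not overlap in either measure, but with 2 libraries a group an exact permutation test over the libraries cannot go below a two-sided p of 0.333. The median log2 fold change of the 71 tested genes was −0.16, that is 10.3% lower, whereas the median over all 9156 tested genes was 0.00. It was between 0.00 and 0.01 away from 0 on each of the arms and X. Of the 71 genes, 59 (83.1%) had a log2 fold change below 0, against 49.8% of all tested genes. Between each Elys-KD and each control library the median log2 difference of these genes was −0.17, −0.14, −0.15 and −0.15. Between the replicates of a group it was 0.0016 in Elys-KD cells and −0.0005 in control cells.

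Of the 71 tested genes, 32 changed (45.1%) by edgeR's quasi-likelihood test at a Benjamini-Hochberg adjusted p under 0.05, against 16.6% of all tested genes. Of these, 28 fell, against a background of 8.56% lower, and 4 rose, against 8.07% higher. Among genes with a control mean of at least 1 TPM, 28 of 51 fell, against 10.3% of all such genes. The falls were small, with log2 fold changes between −0.31 and −0.13. With a ratio of mean TPM over 1.5 asked for as well, only dati was called, a call that most alternatives lost, 1 gene against 3.19% of all tested genes. TPM of the 2 groups did not overlap, with Elys-KD lower, in 42 of the 71 genes (background 21.9%), and with Elys-KD higher in 9 (background 37.2%). The count rested on both control libraries. Without Control-KD replicate 1, 14 genes of chromosome 4 were called, 13 of them lower (18.1%, against 4.45% of all genes), and without Control-KD replicate 2, 17 were called, 16 of them lower (22.2%, against 3.62%). In bulk RNA, fewer cells of a type and less RNA per cell cannot be told apart.

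**Figure D5:**
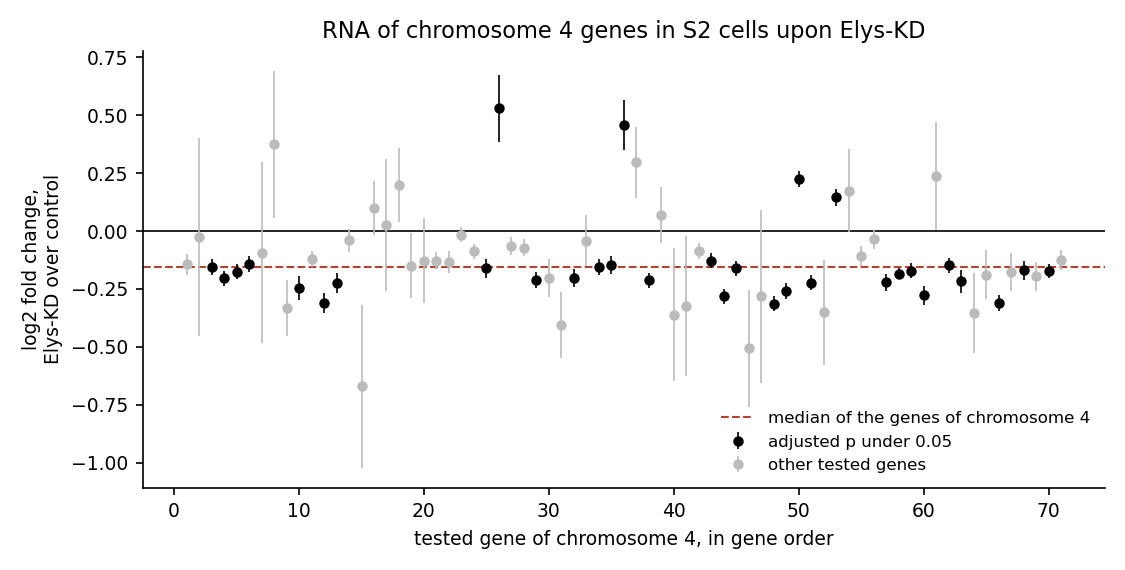
Log2 fold change (Elys-KD over control, edgeR) of the 71 tested genes of chromosome 4 in the order in which they lie on it, with bars of 1 standard error, black where the adjusted p is under 0.05 and grey elsewhere, and a dashed line at their median of −0.16. Of the black points 28 lie below 0 and 4 above it, and they are spread over the whole length of the chromosome.

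The falls were not gathered at an end of the chromosome. In the first of 3 equal parts of the gene order, PlexB to dati, 8 of 26 tested genes fell and the median log2 fold change was −0.13. In the second, lgs to Gyf, 10 of 23 fell and the median was −0.20. In the last part, unc-13 to Cadps, 10 of 22 fell and the median was −0.18.

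Genes of 6 lists of functions, 42 genes in all, are given in turn, and nothing is particular to a list by these counts. Over all 71 tested genes of the chromosome 39.4% fell, against 8.56% of all tested genes, with medians of −0.16 and 0.00. Most calls of the chromosome were lost in some alternative fit, as given in the last paragraph. Of the 4 genes listed under chromatin and the transcription machinery, 3 fell (median log2 fold change −0.26). The list took in Asator and left out the TFIID gene Taf3. MED26, a subunit of the Mediator, had 8.33 and 8.05 TPM in Elys-KD cells, against 9.81 and 9.92 TPM in control cells. Its log2 fold change was −0.31 ± 0.03 (SE, adjusted p = 0.0016, edgeR), the largest fall among the called genes. pho, whose product brings Polycomb complexes to DNA, had 27.2 and 25.3 TPM, against 31.6 and 31.5 TPM, a log2 fold change of −0.31 ± 0.03. Hcf, a cofactor of chromatin modifying complexes, had 44.1 and 40.4 TPM, against 44.8 and 46.1 TPM. Its call was kept with DESeq2 (adjusted p = 0.0038) and lost with library totals alone (edgeR, adjusted p = 0.0698). Asator, a kinase gene, was not called at 2.43 and 2.53 TPM, against 2.61 and 2.79 TPM. In each of these 4 genes the Elys-KD libraries were both below the control libraries. The same held for 59.2% of the tested genes of chromosome 4 and 21.9% of all tested genes.

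Of the 12 transcription factors and cofactors of patterning, most were nearly silent in S2 cells, with 3 of 12 at 1 TPM or more. Of the 8 that could be tested, 1 rose and 1 fell (median −0.13). dati, a zinc finger gene, rose to 0.554 and 0.57 TPM in Elys-KD cells, against 0.376 and 0.329 TPM in control cells (log2 fold change 0.53 ± 0.14 SE, adjusted p = 0.0491, edgeR). This call was lost with DESeq2 (adjusted p = 0.23), without a filter on low counts (edgeR, 0.0905), with the replicate block (edgeR, 0.0684) and with any of the 4 libraries left out (edgeR, 0.104 to 0.212), while its direction was kept. pan, the TCF factor of Wnt signalling, had 12.03 and 11.2 TPM, against 11.8 and 12.01 TPM. Its call rested on the counts, with a log2 fold change of −0.20, and with its effective length as an offset the change was −0.07 and not called. lgs, a partner of pan, had 19.9 and 18.3 TPM, against 18.8 and 19.9 TPM, and Mitf 7.39 and 6.67 TPM, against 8.09 and 7.49 TPM, neither of them called. ey and zfh2 had 2 of the 3 largest falls of any tested gene on the chromosome, log2 fold changes of −0.51 and −0.41 with standard errors of 0.25 and 0.14, yet passed no test. They stood at 0.219 and 0.204 TPM, against 0.226 and 0.352 TPM for ey, and at 0.256 and 0.258 TPM, against 0.301 and 0.357 TPM for zfh2.

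Of the 7 tested receptors and ligands of cell signalling, 3 fell and none rose (median −0.16). Eph, the ephrin receptor, had 14.8 and 14.4 TPM in Elys-KD cells, against 16.2 and 16.4 TPM in control cells. Its ligand Ephrin had 19.5 and 18.1 TPM, against 19.7 and 20 TPM. The call of Ephrin was lost with DESeq2 (adjusted p = 0.0842) and with library totals alone (edgeR, adjusted p = 0.082). myo, a ligand of the TGF-beta family, had 19.7 and 19.2 TPM, against 20.6 and 20.5 TPM. PlexA, a semaphorin receptor and the most abundant of the list, was not called and its groups overlapped, with 50.9 and 46.8 TPM, against 49.2 and 51.7 TPM.

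Of the 7 genes for synapse, muscle and adhesion, 5 passed the test, 4 with a fall and 1 with a rise (median −0.17). Zyx, the zyxin of focal adhesions, had 27.3 and 28.5 TPM in Elys-KD cells, against 32.6 and 33.2 TPM in control cells. Ank, an ankyrin, had 51.3 and 49.2 TPM, against 54.1 and 55.8 TPM. CaMKII, a calcium-dependent kinase, had 38.1 and 38.5 TPM, against 41.1 and 41.1 TPM, and Cals, a calsyntenin, had 26.6 and 25.6 TPM, against 27.8 and 28.3 TPM. unc-13, which primes synaptic vesicles for release, went the other way with 8.65 and 8.24 TPM, against 6.86 and 7.10 TPM (log2 fold change 0.22 ± 0.03 SE). In these 5 the groups did not overlap, and in Syt7 and bt, which were not called, they did. Elys-KD lay lower without overlap in 59.2% of the tested genes of chromosome 4 and 21.9% of all tested genes. It lay higher without overlap in 12.7% and 37.2%.

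Of the 4 genes for translation and RNA, 3 fell (median −0.19). RpS3A, a protein of the small ribosomal subunit and the most abundant RNA of the chromosome, had 2115 and 2147 TPM in Elys-KD cells, against 2386 and 2312 TPM in control cells. eIF4G1, the scaffold of translation initiation, had 67.6 and 63.9 TPM, against 73.4 and 75.1 TPM, and Gyf, a translational repressor, had 35.6 and 34.4 TPM, against 40.7 and 40.4 TPM. gw, the GW182 protein of miRNA silencing, was not called and its groups overlapped at 65.1 and 61.6 TPM, against 64.0 and 65.7 TPM.

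Of the 7 genes listed under metabolism, mitochondria and transport, 4 fell and none rose (median −0.16). This heading is loose and also took in Crk and Rad23. ATPsynbeta, the catalytic subunit of ATP synthase, had 1196 and 1176 TPM in Elys-KD cells, against 1309 and 1326 TPM in control cells. ND-49, a subunit of complex I, had 139.3 and 138.5 TPM, against 151.0 and 152.3 TPM. Crk, an adaptor protein, had 69.1 and 67.4 TPM, against 80.3 and 76.6 TPM, and PIP4K, a lipid kinase, had 69.5 and 67.4 TPM, against 76.8 and 73.8 TPM. Rad23, a ubiquitin shuttle, had 120.4 and 119.3 TPM, against 128.4 and 127.0 TPM, and missed the threshold (adjusted p = 0.0521, edgeR). The Elys-KD libraries lay below both control libraries in these 5 and in Zip102B, 6 of the 7 genes (background 21.9%), and above both in apolpp, at 0.0536 and 0.0528 TPM, against 0.0411 and 0.0464 TPM.

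Outside these lists as matched by symbol, 12 further genes were called, 10 lower and 2 higher. Among those lower were the GTPase genes Arl4, at 61.9 and 62.2 TPM in Elys-KD cells, against 75.4 and 69.6 TPM in control cells, and Arf4, at 123.1 and 129.6 TPM, against 149.4 and 141.2 TPM. Taf3, a subunit of TFIID, had 24.4 and 22.9 TPM, against 26.4 and 26.7 TPM, and Tdg, a DNA glycosylase, had 18.7 and 17.4 TPM, against 19.7 and 20.3 TPM. Dyrk3, a kinase, had 14.6 and 14.1 TPM, against 15.4 and 15.8 TPM. The other 5, CG31998, CG11360, CG11076, anne and Slip1, had log2 fold changes between −0.31 and −0.13. The higher ones were CG1909, at 3.27 and 3.11 TPM, against 2.149 and 2.35 TPM (log2 fold change 0.46 ± 0.11 SE), and 4E-T, a binding partner of eIF4E, at 11.3 and 10.6 TPM, against 9.44 and 9.25 TPM. The call of 4E-T was lost with DESeq2 (adjusted p = 0.249). Outside the calls, yellow-h had the largest fall at 0.176 and 0.275 TPM, against 0.282 and 0.43 TPM (log2 fold change −0.67 ± 0.35 SE), and CG31997 the next largest rise after dati and CG1909 at 0.922 and 0.691 TPM, against 0.504 and 0.749 TPM.

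The 4 listed genes encoded elsewhere whose products act on chromosome 4 had log2 fold changes below 0 and did not pass the test. Pof, the chromosome-specific protein, had 15.1 and 14.7 TPM in Elys-KD cells, against 15.1 and 16.1 TPM in control cells. The gene for HP1a had 598.9 and 594.4 TPM, against 652.3 and 635.7 TPM (log2 fold change −0.13, adjusted p = 0.0553, edgeR). wde had 9.45 and 8.30 TPM, against 9.50 and 10.6 TPM, and the H3K9 methyltransferase gene egg, whose cofactor wde encodes, had 22.0 and 21.2 TPM, against 20.9 and 22.4 TPM. Their part in the lower RNA of the chromosome was not tested.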

How the data were processed

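The authors deposited domains as start and end in dm3/R5 (reads mapped with Bowtie2, counted per 300-bp bin with HTSeq, replicates merged, log2 ratio to Dam, HMM of 3 states for Elys and 2 for Lam). The paper reports fewer Elys sites than the deposited Elys domains. It also reports a higher LAD coverage, of the non-repetitive genome, than that of any arm here. The source of these differences was not tested. Read profiles, and with them mappability on this repeat-rich chromosome, were not analysed here. For RNA, the authors deposited estimated counts and TPM per gene of a dm3 annotation, made with Salmon. Whether strand was used is not given in the sources used here, and reads of overlapping genes may be shared between them.

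Domains were measured in Python 3.11.15 with NumPy 2.4.6 and pandas 2.3.3 as 300-bp bins between the first and last domain of each chromosome, without any test. Rounded counts were tested with edgeR 4.0.16 in R 4.3.3 (TMM, filterByExpr, glmQLFit and glmQLFTest, Benjamini-Hochberg over all 9156 tested genes), with DESeq2 1.42.0 as an alternative. Both steps were tested on simulated data. Plots used Matplotlib 3.10.9.

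Genes were placed on chromosomes by symbol for 13376 of 13937 identifiers, with a RefSeq table of a later assembly (Release 6) used for names and order only. Of 46 listed genes, 42 were held under the listed symbol. Arf4 was listed under another name, did not match and is counted outside the lists. Named were called genes, the 4 most abundant of each list, the 3 largest rises and falls, the 5 longest domains, the 3 longest gaps and extreme windows. The marker genes srp, Hml and Pxn were added after their values were seen. Chromosome 4 and the gene lists were chosen with earlier results of these data known, and within chromosome 4 every domain was taken by its chromosome name. Labels do not say whether the 2 RNA libraries of a group came from separate cultures, though the methods call them biological replicates.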

Additional observations from a re-analysis of the deposited data

How the results depend on the processing

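The overlap ratio of chromosome 4 lay between 1.21 and 1.30 in all alternatives (1.30 counted from position 0 of the chromosome) and above that of each of the 4 arms in each. With gaps of up to 900 bp filled, Elys domains per Mb came to 79.7, LADs per Mb to 41.8, median lengths to 4500 bp (Elys) and 4800 bp (LADs), median gaps to 4950 bp and 6450 bp, and coverages to 53.1% and 48.5%. Filling LADs only, an alternative chosen after seeing the data like the removal of windows, of long gaps free of both proteins and the length offset, gave the same 41.8, 4800 bp, 6450 bp and 48.5% for LADs. With 1-bin domains left out, the median LAD was 4200 bp and the median LAD gap 2100 bp. From position 0, coverages were 48.9% for Elys and 44.6% for LADs. With 0.5 of an Elys domain required in a LAD, 56.6% were shared.

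Of the genes of chromosome 4, 28 were called with library totals alone, 30 with DESeq2 (28 of them also by edgeR), 25 without a filter on low counts, 28 with effective length as an offset, and 14 to 28 with a library left out. With the replicate number as a block 21 were called, but the numbers do not pair the samples (correlation of deviations −0.09), and with a TPM ratio over 1.5 as well, 1 was called. The share called lower was above that of all genes in each of these fits other than the one with the TPM ratio. The median log2 fold change lay between −0.17 and −0.13, and with library totals alone that of all genes was 0.03. All 32 called genes kept their direction, and 9 (MED26, pho, CG31998, CG11360, Zyx, Gyf, Eph, ATPsynbeta and unc-13) passed 0.05 in every fit. The causes of the lost calls were not tested. The domains carry no depth, and their precision is unknown.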
